A study of Mus musculus with 30 samples.

Results

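Livers of 5 mice labelled WT 10 mg/kg were compared with those of 5 mice labelled WT 3 mg/kg, 10 of the 30 arrays of the series, to see what the higher dose of PFOS adds to the lower one. The arrays were chosen by their labels alone, and no control array entered the comparison. PFOS (perfluorooctane sulfonate, given as its potassium salt) was dosed by gavage in 0.5% Tween 20 on 7 consecutive days to male mice 6 to 9 months old. WT mice carried the strain label 129S1/SvlmJ. A further 10 arrays, from PPARα-null (Null) mice (129S4/SvJae-Pparatm1Gonz/J) given 10 or 3 mg/kg in the same way, entered 1 comparison only. Null mice lack a working PPARα gene in every tissue, and the strain label differs along with the genotype. RNA came from the left liver lobe, with 1 mouse per array, and the animals were housed 5 per cage. The sources used here do not say whether the mice of a dose shared a cage, so cage and dose cannot be told apart.

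PPARα is a nuclear receptor of the liver that binds fatty acids and perfluoroalkyl acids and switches on the genes of fatty acid uptake, peroxisomal and mitochondrial fatty acid oxidation, and acyl-CoA hydrolysis. In rodents its activators also enlarge the liver and drive hepatocytes into the cell cycle. CAR and PXR, the receptors for foreign compounds, induce cytochromes P450 of the Cyp2b, Cyp2c, and Cyp3a families and conjugating enzymes. NRF2 is the transcription factor of the oxidative stress response and binds antioxidant response elements.

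The deposited values are log2 expression levels from RMA (robust multichip average), so a difference of 1 is a 2-fold difference. The levels of different probe sets are not set against each other here. Any 2 of the 10 arrays correlated at 0.985 to 0.997 over the 45037 probe sets present before the filter on weak signal. The first principal component held 41.7% of the variance and placed all 5 WT 10 mg/kg arrays (2.23 to 40.2) above all 5 WT 3 mg/kg arrays (−26.1 to −13.9), with WT 10 mg/kg livers 3 and 4 nearest to the lower dose. The labels were checked on Ppara, the deleted gene, whose mean over 3 probe sets lay between 9.96 and 10.8 in WT 10 mg/kg livers and between 9.93 and 10.4 in WT 3 mg/kg livers. The same mean was 8.78 to 9.53 in Null 10 mg/kg livers and 9.19 to 9.51 in Null 3 mg/kg livers, below every WT array. The change of Ppara between the WT doses, in its chosen probe set, was 0.049 ± 0.146 (SE) and was not called. The 12 measured hepatocyte markers averaged 13.2 to 13.3 in WT 10 mg/kg livers and 13.4 to 13.5 in WT 3 mg/kg livers.

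Of 11619 genes tested, 1509 (13.0%) differed between the doses at an adjusted p under 0.05, which is what "called" means below. Of these, 806 (6.94% of genes tested) rose at 10 mg/kg and 703 (6.05%) fell. The median change of all genes tested was 0.01 on the log2 scale, and the median size of a called change was 0.41. Called changes of at least 1.5-fold numbered 303, with 212 rises and 91 falls, and 2-fold changes numbered 68 rises and 12 falls. The 5 WT 10 mg/kg livers lay apart from the 5 WT 3 mg/kg livers for 1137 called genes, with 650 higher and 487 lower, while such separation was seen for 13.2% of all genes tested (7.26% higher and 5.95% lower). The count of calls depended on single livers. It was 698 without WT 10 mg/kg liver 1, 793 without WT 10 mg/kg liver 5, 955 without WT 3 mg/kg liver 1, and 950 without WT 3 mg/kg liver 3. Falls depended on them most, with 270 without WT 10 mg/kg liver 1, 296 without liver 5, and 1161 without liver 3 of that group, and 454, 433, 391, and 420 without WT 3 mg/kg livers 1, 2, 3, and 4 in that order. Rises numbered 428 without WT 10 mg/kg liver 1, 497 without WT 10 mg/kg liver 5, and 501 without WT 3 mg/kg liver 1.

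**Figure D1:**
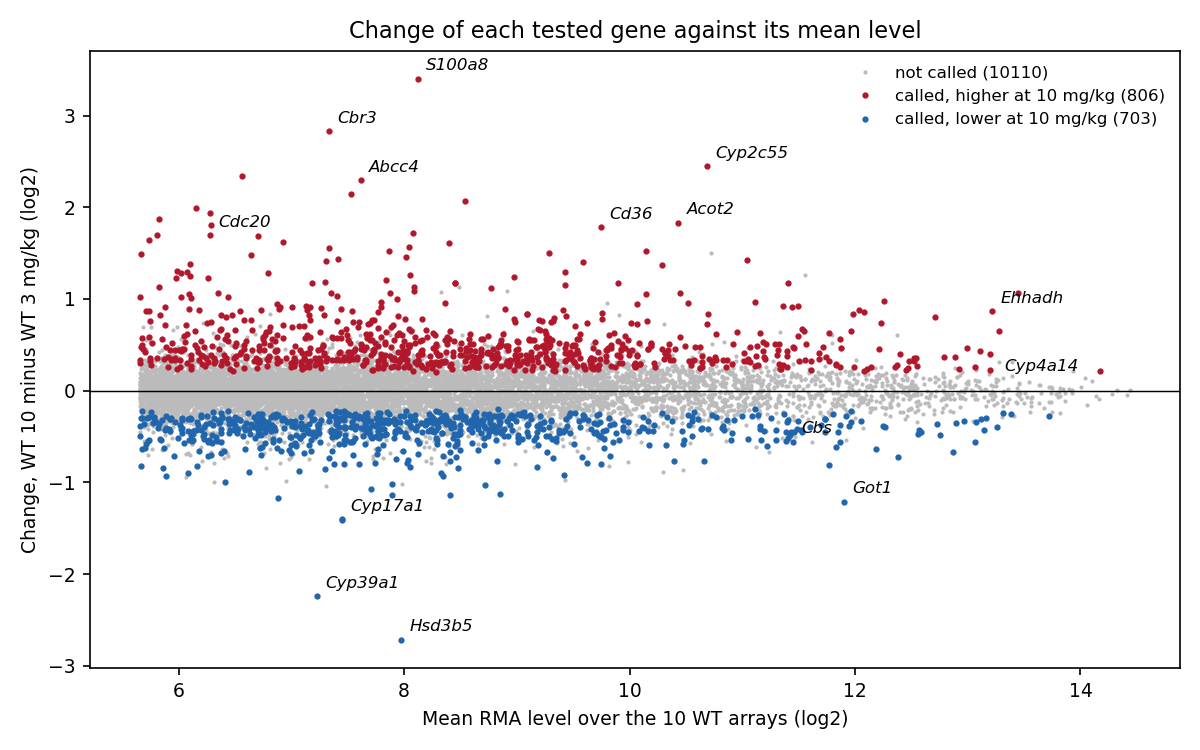
Change of each of the 11619 tested genes between WT 10 and WT 3 mg/kg livers (log2, y axis) against its mean RMA level over the 10 arrays (log2, x axis). The 806 called rises reach 3.40 (S100a8), and the 703 called falls reach −2.71 (Hsd3b5).

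The largest rise was that of S100a8, a calcium-binding protein best known from neutrophils. Its level was 9.83, 10.33, 9.70, 9.45, and 9.79 in WT 10 mg/kg livers, against 6.02, 5.47, 6.67, 6.61, and 7.32 in WT 3 mg/kg livers. The rise was 10.6-fold (log2 change 3.40 ± 0.283 SE, adjusted p = 9.45e-05), and the groups did not overlap although the WT 3 mg/kg livers were spread widely. The probe set belongs to a class that can match related transcripts. S100a9, its usual partner in calprotectin, was not called, with 6.32, 5.66, 6.36, 6.01, and 5.43 in WT 10 mg/kg livers, against 5.28, 4.98, 5.98, 5.47, and 7.13 in WT 3 mg/kg livers (log2 change 0.19 ± 0.341 SE, adjusted p = 0.770). Of the 5 measured neutrophil markers S100a8 was the only one called. In whole liver RNA, a change in the number of cells of a type and one in the RNA per cell cannot be told apart.

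Enzymes and a transporter for foreign compounds were among the 15 largest separated rises. Cbr3, a carbonyl reductase, stood at 8.98, 9.47, 7.54, 8.36, and 9.40 in WT 10 mg/kg livers, against 6.05, 5.85, 5.93, 5.88, and 5.89 in WT 3 mg/kg livers. The WT 3 mg/kg livers were nearly alike, and the WT 10 mg/kg livers were spread, with liver 3 lowest (log2 change 2.83 ± 0.298 SE, adjusted p = 0.000342). Cyp2c55, a cytochrome P450, measured 12.02, 12.08, 11.47, 11.85, and 12.14 in WT 10 mg/kg livers, against 9.92, 9.41, 9.62, 9.74, and 8.64 in WT 3 mg/kg livers, which is a rise of 5.45-fold (log2 change 2.45 ± 0.209 SE, adjusted p = 9.61e-05). Its relative Cyp2c65 rose by 1.93 on the log2 scale (adjusted p = 0.000834). Abcc4, an exporter of bile acids and conjugates across the sinusoidal membrane, gave 8.99, 8.94, 8.35, 8.45, and 9.08 in WT 10 mg/kg livers, against 6.21, 6.72, 6.60, 6.52, and 6.28 in WT 3 mg/kg livers (log2 change 2.30 ± 0.153 SE, adjusted p = 2.67e-05). By the choice of separated rises, every WT 10 mg/kg liver exceeded every WT 3 mg/kg liver for each of these 4 genes.

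Lipid genes were among them as well. Acot2, a mitochondrial thioesterase that splits long-chain acyl-CoA, had the smallest adjusted p of all genes. Its level was 11.25, 11.55, 11.40, 11.20, and 11.35 in WT 10 mg/kg livers, against 9.44, 9.14, 9.63, 9.64, and 9.75 in WT 3 mg/kg livers (log2 change 1.83 ± 0.112 SE, adjusted p = 2.49e-05), a 3.56-fold rise with little spread in either group. Cd36, the fatty acid translocase, measured 10.72, 10.72, 10.85, 10.28, and 10.61 in WT 10 mg/kg livers, against 9.00, 8.06, 9.28, 8.76, and 9.15 in WT 3 mg/kg livers (log2 change 1.78 ± 0.197 SE, adjusted p = 0.000456), and its 3 probe sets rose by 1.57 to 1.92. Mogat1, which makes diacylglycerol from monoacylglycerol, stood at 9.04, 9.21, 7.86, 8.02, and 8.86 in WT 10 mg/kg livers, against 6.46, 5.49, 7.05, 6.74, and 6.54 in WT 3 mg/kg livers (log2 change 2.14 ± 0.310 SE, adjusted p = 0.00219). WT 10 mg/kg livers 3 and 4 were the lowest of their group for Mogat1, and WT 3 mg/kg liver 2 was the lowest of all. Csf2rb, the signalling subunit shared by the receptors for GM-CSF and related cytokines, measured 9.79, 9.88, 9.70, 9.20, and 9.33 in WT 10 mg/kg livers, against 7.18, 6.82, 7.67, 8.15, and 7.71 in WT 3 mg/kg livers (log2 change 2.07 ± 0.221 SE, adjusted p = 0.000378). The remaining rises of this set were Amn (2.34), which carries cubilin to the cell surface, D17H6S56E-5 (1.99), Osbpl3 (1.87), an oxysterol-binding protein relative, and the mitotic genes Ube2c, Ccnb2, and Cdc20.

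**Figure D2:**
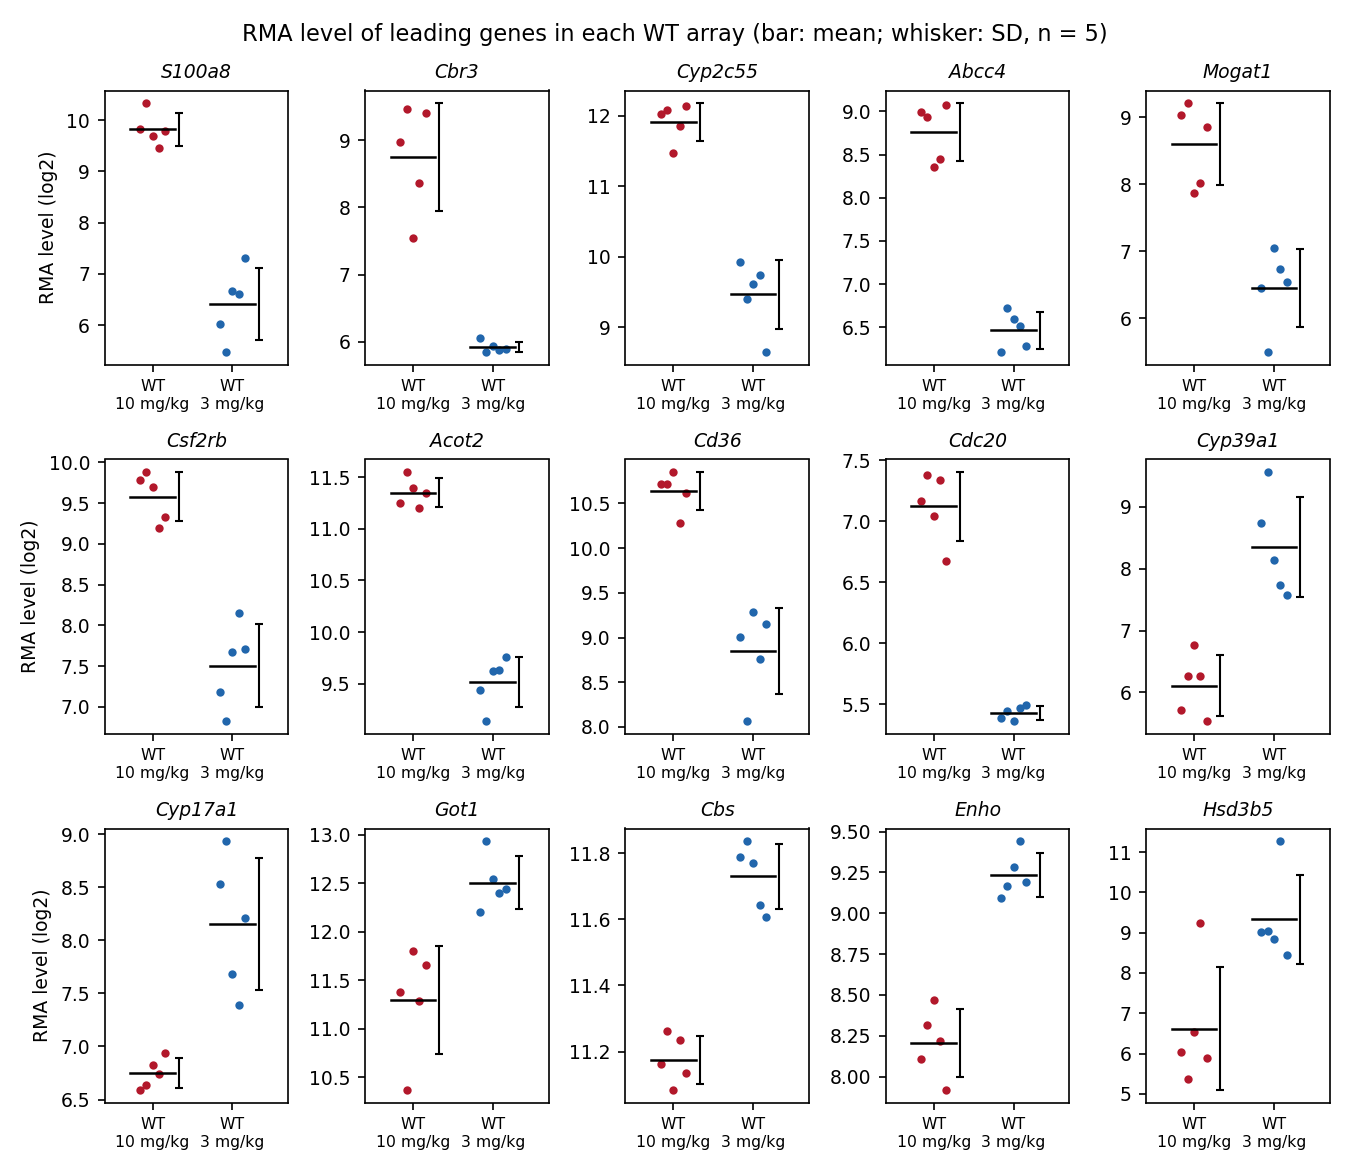
RMA level (log2, y axis) of 15 genes in each WT 10 mg/kg liver (red, left) and each WT 3 mg/kg liver (blue, right); horizontal bars are means and whiskers SD (n = 5). The groups are apart in all panels except Hsd3b5, where WT 10 mg/kg liver 4 reached 9.24 and the lowest WT 3 mg/kg liver 8.45. For genes taken from the largest separated rises and falls this follows from their choice.

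The 15 largest separated falls ran from −2.24 to −0.84. Cyp39a1, an oxysterol hydroxylase of bile acid synthesis, measured 5.71, 6.27, 6.76, 6.27, and 5.53 in WT 10 mg/kg livers, against 8.73, 9.57, 8.13, 7.74, and 7.58 in WT 3 mg/kg livers (log2 change −2.24 ± 0.347 SE, adjusted p = 0.00300). Cyp17a1, the steroid hydroxylase and lyase, stood at 6.59, 6.64, 6.83, 6.74, and 6.94 in WT 10 mg/kg livers, against 8.53, 8.94, 7.69, 7.39, and 8.21 in WT 3 mg/kg livers (log2 change −1.41 ± 0.236 SE, adjusted p = 0.00485). The WT 10 mg/kg livers were close together for Cyp17a1, and the WT 3 mg/kg livers were spread. Myom2, a sarcomere protein, fell by 1.40 on the log2 scale, and all 3 of its probe sets fell. Enho, which encodes the peptide adropin, measured 8.11, 8.32, 8.47, 8.22, and 7.92 in WT 10 mg/kg livers, against 9.09, 9.17, 9.28, 9.44, and 9.19 in WT 3 mg/kg livers (log2 change −1.03 ± 0.103 SE, adjusted p = 0.000268), although 1 of its 3 probe sets gave 0.07. Avpr1a, the vasopressin receptor of hepatocytes, fell by 1.01 (adjusted p = 0.00407), and Irf2bp2, a transcriptional co-repressor, fell by 0.92 with all 4 probe sets called. Adk, adenosine kinase, fell by 1.14 in the chosen probe set, while its 6 probe sets ranged from −1.14 to −0.08 and the one with the highest mean gave −0.14. Smaller falls were seen for Sdr9c7 (−0.89), Ccdc141 (−0.99), Mmd2 (−0.87), N4bp2l1 (−0.84), and the nuclear RNA Malat1 (−0.85). Pnisr, an RNA-processing factor (−1.07), and Pcf11, which acts in cleavage of transcript ends (−0.93), each lost the call without WT 10 mg/kg liver 1 or WT 3 mg/kg liver 2.

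Hsd3b5, a steroid dehydrogenase of male mouse liver, had the largest fall but overlapping groups. It measured 6.04, 5.37, 6.53, 9.24, and 5.88 in WT 10 mg/kg livers, against 9.02, 9.04, 8.85, 11.28, and 8.45 in WT 3 mg/kg livers (log2 change −2.71 ± 0.684 SE, adjusted p = 0.0287). Liver 4 was the highest of its group at both doses. The call was lost on leaving out any one of 6 livers (WT 10 mg/kg livers 1, 2, and 5 and WT 3 mg/kg livers 1, 2, and 4), with adjusted p up to 0.0755. Igf1, the growth hormone target, measured 12.55, 12.42, 12.62, 12.69, and 12.46 in WT 10 mg/kg livers, against 12.86, 12.74, 12.95, 12.95, and 13.03 in WT 3 mg/kg livers (log2 change −0.36 ± 0.0764 SE, adjusted p = 0.0141), without overlap. These were the 2 falls among 24 measured male- and female-biased liver genes, where 1 gene rose. The share called was 12.5%, near the 13.0% over all genes tested. There was 1 fall without any one of WT 10 mg/kg livers 1 and 5 and WT 3 mg/kg livers 1 and 4, there were 4 without WT 3 mg/kg liver 3 or 5, and 2 genes rose without WT 10 mg/kg liver 3 or WT 3 mg/kg liver 4.

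Many PPARα target genes were higher at the higher dose. Of 74 listed target genes, 68 had a named probe set and 64 were measured. Of these 34 rose and 0 fell, against a background of 6.94% rises over all genes tested. The median change of the measured targets was 0.30, against 0.01 for all genes. Their mean level was 11.1 to 11.3 in WT 10 mg/kg livers and 10.7 to 10.8 in WT 3 mg/kg livers. Leaving out 1 liver at a time gave 23 to 34 rises, the fewest without WT 10 mg/kg liver 1. WT 10 mg/kg liver 4 was the lowest of its group for 21 of the 34 genes, and liver 3 was the highest for 13. Many of the 34 are counted again in lists below. They include 6 called genes of peroxisomal beta-oxidation, 5 of mitochondrial beta-oxidation, and 5 of the carnitine route. A further 5 called thioesterases and 4 called genes of fatty acid uptake and binding are shared. Those lists are therefore not separate evidence.

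Peroxisomal enzymes were led by Ehhadh, the bifunctional enzyme, at 13.66, 13.67, 13.71, 13.58, and 13.64 in WT 10 mg/kg livers, against 12.66, 12.67, 12.83, 12.82, and 12.92 in WT 3 mg/kg livers (log2 change 0.87 ± 0.0673 SE, adjusted p = 5.80e-05), and the WT 10 mg/kg livers were nearly alike. Pex11a, which makes peroxisomes divide, measured 11.75, 12.04, 11.96, 11.63, and 11.75 in WT 10 mg/kg livers, against 10.83, 10.97, 10.92, 10.87, and 10.93 in WT 3 mg/kg livers (log2 change 0.92 ± 0.0809 SE, adjusted p = 0.000109). Of 18 measured peroxisomal beta-oxidation genes 6 rose and 0 fell, among them Ech1 (0.37). That count was 2 without WT 10 mg/kg liver 1 and 3 without WT 3 mg/kg liver 1 or 2. Of 19 peroxins and peroxisomal membrane genes 4 rose, with Pex3 (0.36) and Pex19 (0.39), import factors for membrane proteins, beside Pex11a. Among microsomal enzymes Aldh3a2, the fatty aldehyde dehydrogenase, rose by 0.86 (adjusted p = 0.000103).

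Cyp4a14, an omega-hydroxylase and a classical PPARα target, was not called. It measured 13.24, 13.38, 13.35, 13.27, and 13.32 in WT 10 mg/kg livers, against 13.25, 13.23, 13.16, 13.14, and 13.17 in WT 3 mg/kg livers (log2 change 0.13 ± 0.0574 SE, adjusted p = 0.178), and the groups overlapped. Cyp4a31 measured 11.96, 11.92, 12.42, 11.80, and 11.87 in WT 10 mg/kg livers, against 10.87, 10.94, 10.70, 10.99, and 10.57 in WT 3 mg/kg livers (log2 change 1.18 ± 0.119 SE, adjusted p = 0.000277) and was separated. Of 8 listed Cyp4a genes only 3 had a probe set naming a single gene, and near-identical family members can share signal in such probe sets.

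Most acyl-CoA thioesterases, which release free fatty acid from its CoA ester, rose. Of 12 measured members 8 rose and 0 fell, with a median change of 0.52, and leaving out 1 liver gave 7 to 9. Beside Acot2, the cytosolic Acot1 rose by 1.06 (adjusted p = 0.000424), Acot4 by 0.81, and the peroxisomal Acot8 by 0.63. Acot1, Acot2, Acot3, and Acot4 are close copies of each other, so their probe sets may share signal. The carnitine route also rose, with 5 of 9 measured members called and 0 falling. Slc22a5, the carnitine importer, measured 10.60, 10.65, 10.75, 10.22, and 10.46 in WT 10 mg/kg livers, against 9.49, 9.79, 9.55, 9.56, and 9.56 in WT 3 mg/kg livers (log2 change 0.94 ± 0.0994 SE, adjusted p = 0.000342). Crat, carnitine acetyltransferase, rose by 0.84, Slc25a20, the carnitine carrier of the inner membrane, by 0.38, and Cpt2 by 0.36. The steps of mitochondrial beta-oxidation itself were smaller. There 6 of 19 measured genes rose, with a median change of 0.12 over the list, led by Acad12 (0.60) and Decr1 (0.40). That count was 2 without WT 10 mg/kg liver 1 or 5, and 3 without WT 3 mg/kg liver 1 or 3. None of 4 measured ketone body synthesis genes was called by limma or by the methods' t-test, and 1 had an unadjusted p under 0.05.

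Genes that store and make lipid rose in the same livers. Of 16 measured lipid droplet proteins and lipases 8 rose and 0 fell, with a median change of 0.34, and 5 rose without WT 10 mg/kg liver 1 or WT 3 mg/kg liver 5. Plin2, the main coat protein of hepatocyte lipid droplets, measured 13.34, 13.53, 13.20, 13.29, and 13.26 in WT 10 mg/kg livers, against 12.96, 12.64, 12.89, 13.01, and 12.95 in WT 3 mg/kg livers (log2 change 0.43 ± 0.0856 SE, adjusted p = 0.0105). G0s2, an inhibitor of the lipase ATGL, rose by 0.96, Mgll, monoacylglycerol lipase, by 0.64, and Fitm2, which partitions fat into droplets, by 0.65. The 4 probe sets of Mgll ranged from −0.14 to 0.64. Of 29 measured genes of triglyceride and fatty acid synthesis 12 rose and 2 fell. Leaving out 1 liver gave 9 to 13 rises, and 1 fall without any one of WT 10 mg/kg livers 1, 2, and 5 and WT 3 mg/kg livers 1, 3, 4, and 5. Acaca, the first committed enzyme of fatty acid synthesis, measured 9.94, 10.10, 9.95, 9.86, and 9.95 in WT 10 mg/kg livers, against 9.48, 9.35, 9.53, 9.36, and 9.41 in WT 3 mg/kg livers (log2 change 0.54 ± 0.0660 SE, adjusted p = 0.000842). Me1, which supplies NADPH, rose by 0.91, and Scd1, the stearoyl-CoA desaturase, by 0.80 in the chosen probe set and 0.28 in the other one. Mogat1, described above, was the largest rise of that list.

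Fabp4, a fatty acid binding protein of fat cells and macrophages, rose by 0.89 (adjusted p = 0.00640), and Pparg, the fat cell receptor of the PPAR family, by 0.90 (adjusted p = 0.00385). Their groups did not overlap. Of 15 measured genes of fatty acid uptake and binding 4 rose, Cd36 and Fabp4 among them, and 2 did so without WT 10 mg/kg liver 1 or 5. Of 3 measured fat cell and pancreas markers 0 rose and 1 fell, and the fall was lost without any one of WT 10 mg/kg livers 1 and 5 and WT 3 mg/kg livers 1 and 3. Pltp, which transfers phospholipid between lipoproteins, measured 10.58, 9.89, 10.20, 9.77, and 9.93 in WT 10 mg/kg livers, against 8.47, 8.66, 8.92, 9.09, and 8.78 in WT 3 mg/kg livers (log2 change 1.29 ± 0.154 SE, adjusted p = 0.000734). It was the only rise among 21 measured apolipoprotein and lipoprotein genes, where 2 rose without WT 3 mg/kg liver 2 and 3 fell (1 without WT 10 mg/kg liver 5), among them Apom (−0.38), a carrier in high-density lipoprotein. Of 20 measured cholesterol synthesis genes 1 was called and the list's median was 0.20. The mean level of that list overlapped between the groups, with 10.0 to 10.5 in WT 10 mg/kg livers and 9.70 to 10.2 in WT 3 mg/kg livers. Without WT 10 mg/kg liver 3 the call count was 7, and it was 0 without any one of WT 10 mg/kg livers 1 and 5 and WT 3 mg/kg livers 2, 3, and 4.

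**Figure D3:**
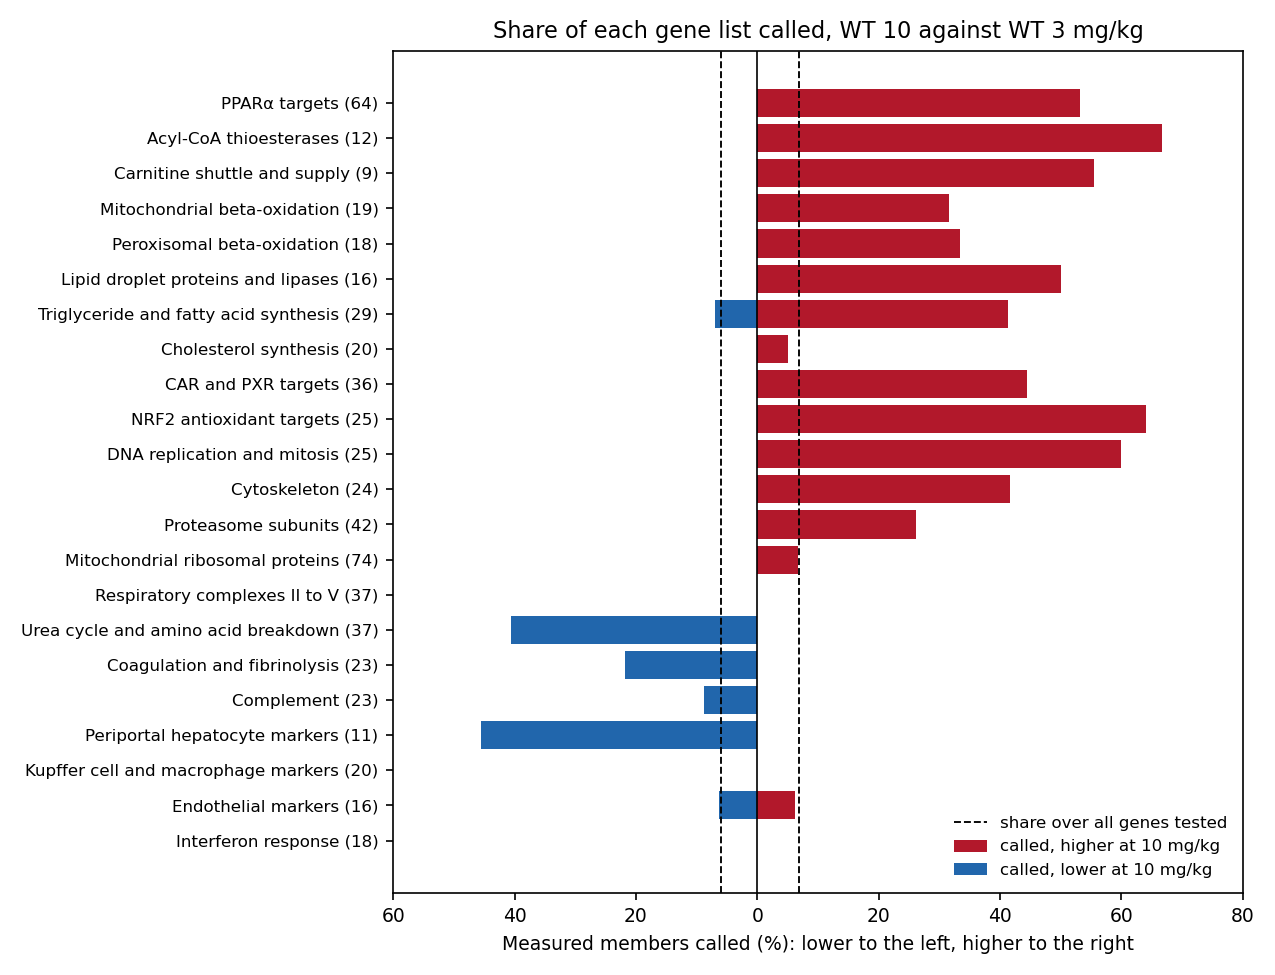
Share of the measured members of each gene list (number in brackets) called higher (red, right) or lower (blue, left) at 10 mg/kg in WT livers; dashed lines mark 6.94% and 6.05%, the shares over all genes tested. The bars for PPARα targets, acyl-CoA thioesterases, and NRF2 targets lie on the right only, and that for urea cycle and amino acid genes on the left only.

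Genes of foreign compound metabolism rose as well. Of 52 listed CAR and PXR targets 40 had a named probe set and 36 were measured, of which 16 rose and 0 fell. The mean level of the list was 10.93 to 11.03 in WT 10 mg/kg livers and 10.41 to 10.61 in WT 3 mg/kg livers. Leaving out 1 liver gave 11 to 17 rises. With the 5 WT control arrays added to the fit, which changes the estimate of spread and not the contrast, 4 were called. Gadd45b, a stress sensor that CAR activators induce, measured 8.72, 9.03, 8.20, 8.76, and 8.42 in WT 10 mg/kg livers, against 7.10, 7.06, 6.93, 6.99, and 7.45 in WT 3 mg/kg livers (log2 change 1.52 ± 0.146 SE, adjusted p = 0.000204), while its 3 probe sets ranged from 0.09 to 1.52. The glutathione transferase Gstm3 stood at 14.02, 14.08, 13.72, 14.06, and 14.03 in WT 10 mg/kg livers, against 13.04, 12.97, 12.94, 13.01, and 12.62 in WT 3 mg/kg livers (log2 change 1.07 ± 0.0964 SE, adjusted p = 0.000138). Gstm2 rose by 1.42, Gstm4 by 0.88, and Gstm1 by 0.74, and as members of 1 gene cluster they may share probe signal. Of 10 measured carboxylesterases 4 rose (2 without WT 3 mg/kg liver 3 or 5), led by Ces1g (1.18), and Ces2a rose by 0.40. With all 30 arrays or the 15 WT arrays in the fit 0 of the 10 were called.

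The NRF2 list rose by the same measure. Of 30 listed genes 25 were measured, 16 rose and 0 fell, and the median change was 0.45. Leaving out 1 liver gave 13 to 18 rises, and adding the WT control arrays to the fit gave 5. Nqo1, a quinone reductase and the usual NRF2 marker, measured 8.24, 8.35, 7.73, 7.95, and 8.05 in WT 10 mg/kg livers, against 7.24, 7.24, 7.56, 7.29, and 7.31 in WT 3 mg/kg livers (log2 change 0.74 ± 0.112 SE, adjusted p = 0.00274). The NRF2 list shares members with the CAR and PXR list, Gstm1, Gstm3, and Abcc4 among them, and with the PPARα list, so the lists are not separate evidence. WT 10 mg/kg liver 2 was the highest of its group for 12 of the 16 called genes, and liver 3 was the lowest for 11. Among the 34 called PPARα targets liver 2 was the highest for 12 and liver 3 for 13. Of 16 called NRF2 genes, 12 had a RefSeq promoter (GRCm38.p6, 250 bases before to 50 after the start), and 5 of these held the core of the antioxidant response element, TGACNNNGC, on either strand in at least 1 promoter. By the same count 14% of all 27025 genes with a promoter held it, and so did 1 of 12 called cell cycle genes with a promoter, described below. Of the single promoters 12.4% held it. The promoters of Me1 and Abcc4, which are named above, are printed as examples of the 5 genes that hold the core, which is in capitals. Cbr3 and Gstm3, which rose as well, have promoters in the set, and none of these holds the core. Me1 has a promoter at chr9:86695865-86696164 on the minus strand, with its match starting 6 bases before the transcript start, and another at chr9:86687228-86687527, which holds no match and is not printed. Abcc4 has one promoter at chr14:118706170-118706469 and another at chr14:118676882-118677181, both on the minus strand. Each holds 1 match, which begins 25 bases before the start in the first and 23 bases before it in the other.
Me1: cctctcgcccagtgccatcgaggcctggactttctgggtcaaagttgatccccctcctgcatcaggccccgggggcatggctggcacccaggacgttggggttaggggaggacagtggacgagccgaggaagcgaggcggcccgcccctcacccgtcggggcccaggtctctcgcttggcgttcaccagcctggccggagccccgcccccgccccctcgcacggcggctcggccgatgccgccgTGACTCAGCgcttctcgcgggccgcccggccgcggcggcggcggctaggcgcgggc
Abcc4, first promoter: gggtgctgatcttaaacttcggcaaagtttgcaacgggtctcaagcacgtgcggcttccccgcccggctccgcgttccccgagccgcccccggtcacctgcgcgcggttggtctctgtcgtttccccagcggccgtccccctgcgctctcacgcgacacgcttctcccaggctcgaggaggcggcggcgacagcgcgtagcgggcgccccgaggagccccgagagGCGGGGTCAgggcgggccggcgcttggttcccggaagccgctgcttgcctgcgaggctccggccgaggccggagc
Abcc4, other promoter: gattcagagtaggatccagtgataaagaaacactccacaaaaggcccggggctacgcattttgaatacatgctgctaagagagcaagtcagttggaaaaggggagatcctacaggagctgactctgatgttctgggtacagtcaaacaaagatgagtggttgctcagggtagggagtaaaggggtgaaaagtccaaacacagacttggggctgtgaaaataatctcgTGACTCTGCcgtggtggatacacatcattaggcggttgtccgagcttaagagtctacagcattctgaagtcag

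Cell cycle genes formed a separate group of rises. Of 39 listed DNA replication and mitosis genes 38 had a named probe set, but 25 passed the filter on weak signal, and a gene switched on at 10 mg/kg passes it more easily, so the 15 rises and 0 falls are given as a description. Without any filter 26 genes of the list were called, and with only probe sets averaging above 7 there were 3. Cdc20, the activator of the anaphase-promoting complex, measured 7.17, 7.38, 7.05, 7.34, and 6.68 in WT 10 mg/kg livers, against 5.38, 5.44, 5.36, 5.47, and 5.49 in WT 3 mg/kg livers (log2 change 1.69 ± 0.116 SE, adjusted p = 2.67e-05). The WT 3 mg/kg livers were nearly alike, below the signal limit of 5.66 set for the mean over all 10 arrays. The probe set of Cdc20 with the highest mean gave 0.21 and was not called, while a further one gave 2.22. Ccnb2, cyclin B2, stood at 6.76, 7.07, 6.33, 7.03, and 6.09 in WT 10 mg/kg livers, against 5.31, 4.58, 5.34, 5.00, and 4.58 in WT 3 mg/kg livers (log2 change 1.69 ± 0.213 SE, adjusted p = 0.000895). Ube2c, the ubiquitin-conjugating enzyme of the anaphase-promoting complex, which is outside the list, measured 7.12, 7.58, 7.15, 7.46, and 6.63 in WT 10 mg/kg livers, against 5.44, 5.04, 5.63, 5.91, and 4.91 in WT 3 mg/kg livers (log2 change 1.80 ± 0.207 SE, adjusted p = 0.000571). Birc5, which encodes survivin, rose by 1.64, and Ccna2, cyclin A2, by 1.23. WT 10 mg/kg liver 5 was the lowest of its group for 13 of the 15 called genes.

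Of the 15 called cell cycle genes 12 had a RefSeq promoter. The cell cycle homology region, searched as TTTGAA, was found on either strand in at least 1 promoter of 6 of them, of 4 of the 12 called NRF2 genes, and of 20.2% of all genes with a promoter (17.9% of single promoters). The CCAAT box, searched as CCAAT, was found in the same way in 10 of them, in 7 of the 12 NRF2 genes, and in 41.1% of all genes (37.4% of promoters). The E2F site, searched as TTTGGCGC, was found in 3 of them, in 0 of the 12 NRF2 genes, and in 0.585% of all genes (0.514% of promoters). The cell cycle homology region is an element through which late cell cycle genes are known to be held down in resting cells and opened in dividing ones. A match is a description of the letters and not a bound site. The promoters of Cdc20 (chr4:118437294-118437593, minus strand) and Ccnb2 (chr9:70421505-70421804, minus strand) are printed as examples of the list that hold both TTTGAA and CCAAT, which are in capitals. Both genes were below 5.66 in every WT 3 mg/kg liver, so the sizes of their rises are uncertain. In Cdc20 the TTTGAA begins 18 bases before the start, between a CCAAT box 53 bases before it and one 8 bases before it. In Ccnb2 there are 3 CCAAT boxes, at 87, 54, and 21 bases before the start, with one TTTGAA beginning at base 5 of the transcript and another 167 bases before it.
Cdc20: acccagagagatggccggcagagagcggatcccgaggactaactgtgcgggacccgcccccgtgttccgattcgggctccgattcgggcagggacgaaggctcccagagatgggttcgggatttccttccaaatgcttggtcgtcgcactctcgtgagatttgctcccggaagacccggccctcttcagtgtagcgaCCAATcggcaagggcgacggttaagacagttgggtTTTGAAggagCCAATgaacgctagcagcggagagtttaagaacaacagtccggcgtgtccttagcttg
Ccnb2: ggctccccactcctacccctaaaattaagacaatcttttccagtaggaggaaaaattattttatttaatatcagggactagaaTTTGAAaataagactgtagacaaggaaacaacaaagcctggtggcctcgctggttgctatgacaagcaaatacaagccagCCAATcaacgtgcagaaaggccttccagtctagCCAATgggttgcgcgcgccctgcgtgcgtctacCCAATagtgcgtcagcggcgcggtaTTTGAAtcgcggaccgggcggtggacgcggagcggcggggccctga

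Of 18 measured growth arrest and damage response genes 5 rose and 0 fell (3 rose without WT 10 mg/kg liver 1), against 6.94% rises over all genes tested, and 5 of the 18 changes were negative. Jun, an immediate early transcription factor, measured 9.07, 9.82, 8.32, 9.22, and 9.57 in WT 10 mg/kg livers, against 7.96, 7.48, 7.34, 7.69, and 7.49 in WT 3 mg/kg livers (log2 change 1.61 ± 0.231 SE, adjusted p = 0.00206). Gadd45a rose by 0.87 with overlapping groups. Hspb1, a small heat shock protein, stood at 9.72, 10.74, 9.33, 9.86, and 10.53 in WT 10 mg/kg livers, against 8.76, 8.53, 8.45, 8.48, and 8.46 in WT 3 mg/kg livers (2.82-fold rise, adjusted p = 0.00247), although only 3 of 18 measured heat shock genes rose (1 without WT 3 mg/kg liver 3). Of 24 measured cytoskeleton genes 10 rose and 0 fell, with a median change of 0.41, and leaving out 1 liver gave 7 to 12. Krt8 and Krt18, the keratin pair of hepatocytes, both rose. Krt8 measured 11.99, 11.91, 11.59, 11.90, and 11.96 in WT 10 mg/kg livers, against 11.20, 11.01, 11.17, 11.45, and 11.28 in WT 3 mg/kg livers (log2 change 0.65 ± 0.0962 SE, adjusted p = 0.00247), and Krt18 rose by 0.63. Tubb6, a beta tubulin, rose by 0.92, Tpm1, tropomyosin, by 0.55, and Vim, vimentin, by 0.65. WT 10 mg/kg liver 3 was the lowest of its group for 8 of the 10. Krt8 and Krt18 mark hepatocytes as well as bile duct cells. None of the 3 measured bile duct markers was called by limma or had an unadjusted p under 0.05. A further 4 bile duct markers lay below the filter on weak signal, and the part of bile duct cells was not tested.

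Of 37 measured genes of the urea cycle and amino acid breakdown 15 fell and 0 rose, against a background of 6.05% falls, and the median change was −0.25. The mean level of the list was 11.5 to 11.6 in WT 10 mg/kg livers and 11.7 to 11.9 in WT 3 mg/kg livers, with no overlap. The 12 hepatocyte markers moved with it, with 12 negative changes, a median of −0.20, and list means without overlap as given above, and their part in the result was not tested. The 2 lists share 2 measured genes, 1 of them called, so they are not separate evidence. The count of urea cycle and amino acid falls was 6 without WT 10 mg/kg liver 1 or 5, 8 without WT 10 mg/kg liver 2 or WT 3 mg/kg liver 1, 2, or 3, and 9 without liver 4 of either group. Got1, the cytosolic aspartate aminotransferase, measured 11.38, 10.37, 11.80, 11.29, and 11.66 in WT 10 mg/kg livers, against 12.21, 12.93, 12.55, 12.40, and 12.44 in WT 3 mg/kg livers (log2 change −1.21 ± 0.230 SE, adjusted p = 0.00868), with WT 10 mg/kg liver 2 far below its group. Cbs, cystathionine beta-synthase, measured 11.16, 11.26, 11.08, 11.23, and 11.13 in WT 10 mg/kg livers, against 11.79, 11.84, 11.77, 11.64, and 11.61 in WT 3 mg/kg livers (log2 change −0.55 ± 0.0675 SE, adjusted p = 0.000834), and the livers of each dose were close together. Hal, which degrades histidine, stood at 11.62, 11.56, 11.77, 11.58, and 11.59 in WT 10 mg/kg livers, against 12.14, 12.08, 12.08, 12.07, and 12.01 in WT 3 mg/kg livers (log2 change −0.45 ± 0.0622 SE, adjusted p = 0.00166). Agxt, alanine-glyoxylate aminotransferase, fell by 0.39 and Kynu, kynureninase, by 0.58, each without overlap.

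Of 17 measured genes of gluconeogenesis and glycogen 3 fell and 0 rose (1 fall without WT 10 mg/kg liver 1), with Ppargc1a, the coactivator PGC-1α, at 5.57, 5.11, 6.35, 5.61, and 5.54 in WT 10 mg/kg livers, against 6.31, 6.86, 6.58, 6.37, and 6.56 in WT 3 mg/kg livers (log2 change −0.90 ± 0.186 SE, adjusted p = 0.0128). All WT 10 mg/kg livers except liver 3 were below the signal limit of 5.66, so the size of this fall is uncertain. The call of Ppargc1a was lost under the methods' t-test, with adjustment and at the unadjusted limit. Of 11 measured periportal markers 5 fell and 0 rose, Hal among them, and 2 or 3 fell without any one liver other than WT 10 mg/kg liver 3. Pigr, the immunoglobulin transporter, fell by 0.56 in that list (adjusted p = 0.00564). Of the called periportal markers, 3 are also on the list of the urea cycle and amino acid breakdown. The list of gluconeogenesis and glycogen shares 1, so these lists are not separate evidence. The median change was −0.25 for the periportal markers and −0.15 for the 15 measured pericentral markers, of which 1 rose, 2 fell, and 10 had negative changes. The pericentral falls numbered 4 without WT 10 mg/kg liver 3, 1 without WT 3 mg/kg liver 1, and 0 without any one of WT 10 mg/kg livers 2 and 5 and WT 3 mg/kg livers 2, 3, and 4, and 2 pericentral genes rose without WT 10 mg/kg liver 3. Coagulation factors gave 5 falls and 0 rises among 23 measured genes, F11 (−0.56) and F7 (−0.42) among them. The count was 10 without WT 10 mg/kg liver 3, 3 without WT 3 mg/kg liver 1, and 2 without any one of WT 10 mg/kg livers 1, 2, and 5 and WT 3 mg/kg livers 2, 3, and 4. Complement gave 2 falls among 23, C1s1 (−0.51) and C8b (−0.41), and the count was 4 without WT 10 mg/kg liver 3. The share that fell was 8.70% for complement and 4% for acute-phase genes, near the 6.05% over all genes tested. Of 25 measured acute-phase genes 1 fell, Ahsg (−0.27), a plasma protein known to decline in inflammation. The mean level of that list varied more within the groups than between them, from 11.4 to 12.7 in WT 10 mg/kg livers and from 11.1 to 12.9 in WT 3 mg/kg livers, with WT 10 mg/kg liver 3 and WT 3 mg/kg liver 5 highest.

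**Figure D4:**
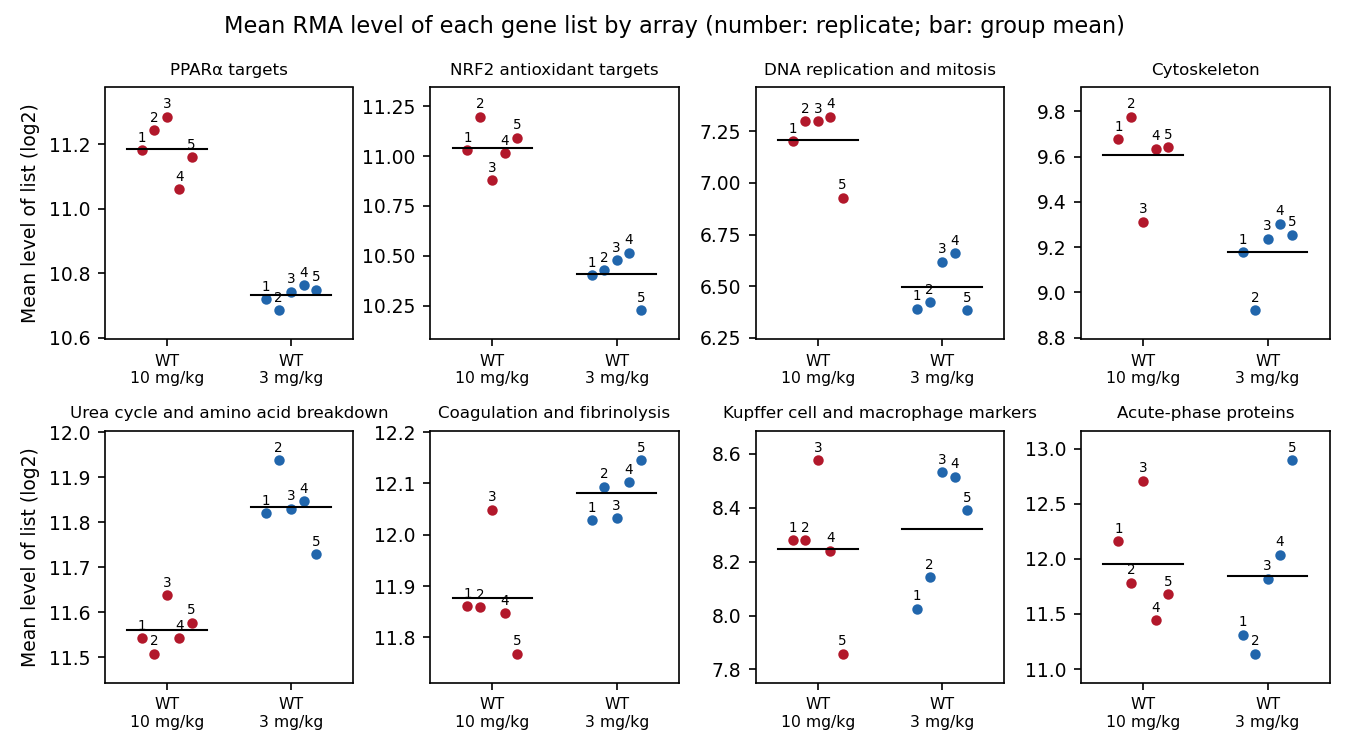
Mean RMA level (log2, y axis) of the measured members of 8 gene lists in each WT 10 mg/kg liver (red, left) and each WT 3 mg/kg liver (blue, right); numbers are replicates and bars group means. PPARα targets, NRF2 targets, and cell cycle genes are apart and higher at 10 mg/kg, urea cycle and amino acid genes are apart and lower, and acute-phase and macrophage genes overlap.

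Receptors and regulators of the hepatocyte moved in both directions. Of 20 measured nuclear receptors 1 rose and 4 fell. The rise was Pparg. Nr5a2, the receptor LRH-1 of bile acid genes, measured 10.04, 10.23, 10.35, 10.37, and 10.22 in WT 10 mg/kg livers, against 10.69, 10.80, 10.56, 10.65, and 10.70 in WT 3 mg/kg livers (log2 change −0.44 ± 0.0767 SE, adjusted p = 0.00607). The count of falls was 1 without any one of WT 10 mg/kg livers 1 and 5 and WT 3 mg/kg liver 2, and 2 without WT 10 mg/kg liver 4 or WT 3 mg/kg liver 1, 3, or 4. Among 26 measured genes of bile acid synthesis and transport 3 rose and 3 fell. Cyp39a1, described above, is outside that list. Abcc4, on the blood side, was the largest rise, and Abcb11, the bile salt export pump, fell by 0.34 (adjusted p = 0.0121). Without 1 liver the rises numbered 1 where WT 3 mg/kg liver 1, 3, or 5 was left out, and the falls numbered 1 without WT 10 mg/kg liver 1 or WT 3 mg/kg liver 1 and 5 without WT 10 mg/kg liver 3 or WT 3 mg/kg liver 5. Of 21 measured retinoid genes 5 rose and 0 fell, led by Retsat, retinol saturase (0.73), Rdh11, retinol dehydrogenase (0.51), and Rarb, a retinoic acid receptor (0.52). With all 30 arrays in the fit 1 retinoid gene was called, and Retsat, Rdh11, and Rarb were not. The probe set of Retsat with the highest mean gave 0.28. Blvrb, biliverdin reductase, rose by 0.65. Meg3, an imprinted noncoding RNA, fell by 0.84 (adjusted p = 0.00971) in its chosen probe set, while its 8 probe sets ranged from −0.84 to 0.11.

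Changes in genes of protein turnover and mitochondria were small. Of 42 measured proteasome subunits 11 rose and 0 fell, with a median of 0.15. That count was 1 without any one of WT 10 mg/kg livers 1, 2, and 5 and WT 3 mg/kg livers 2 and 3, 3 without WT 3 mg/kg liver 1 or 5, and 5 without WT 3 mg/kg liver 4. Psmd5, an assembly chaperone of the regulatory particle, rose by 0.34. Psme1, a subunit of the interferon-inducible activator, rose by 0.46. It belongs to the immunoproteasome and antigen presentation list, where 2 of 13 measured genes rose (3 without WT 10 mg/kg liver 4, 2 without WT 3 mg/kg liver 4, and 1 without any other liver). Of 42 measured cytosolic ribosomal proteins 2 rose (1 without any one of WT 10 mg/kg liver 2 and WT 3 mg/kg livers 3 and 5, and 0 without any one of WT 10 mg/kg livers 1 and 5 and WT 3 mg/kg livers 1 and 2), and of 74 mitochondrial ribosomal proteins 5 rose (9 without WT 10 mg/kg liver 3, 2 without WT 10 mg/kg liver 5, and 3 without WT 3 mg/kg liver 1). Both shares are near the 6.94% of all genes. Of 37 subunits of respiratory complexes II to V none was called by limma or by the methods' t-test, 3 had an unadjusted p under 0.05, and 1 fell without WT 10 mg/kg liver 3. The list's median was 0.02. Cs, citrate synthase, rose by 0.47 and was 1 of 3 rises among 17 measured genes of the tricarboxylic acid cycle.

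Markers of liver cell types are set against the share called over all genes tested, 13.0%. The share was 28.6% for stellate cell and fibroblast markers, 25% for hepatocyte markers, and 20% for neutrophil markers. For endothelial markers it was 12.5%, near that of all genes. None of 20 measured Kupffer cell and macrophage markers and none of 18 interferon response genes was called by the limma fit of the 10 arrays or by the methods' t-test, with 3 and 4 of them at an unadjusted p under 0.05. With array weights in limma 1 macrophage gene rose and 3 fell, and 2 interferon genes fell. Without WT 10 mg/kg liver 3 the macrophage list had 1 rise and 2 falls. It had 1 rise with the arrays shifted to the same median, with repeated quantile normalization, or with a trend and robust spread. The macrophage list averaged 7.86 to 8.58 in WT 10 mg/kg livers and 8.03 to 8.53 in WT 3 mg/kg livers. Of 16 endothelial markers 1 rose, Lyve1 (0.43), and 1 fell, which was lost without any one of WT 10 mg/kg livers 1 and 5 and WT 3 mg/kg liver 3. Of 14 stellate cell and fibroblast markers 2 rose, Vim among them, and 2 fell, Dcn, decorin (−0.45), among them. There was 1 rise without any one of WT 10 mg/kg liver 1 and WT 3 mg/kg livers 1, 2, and 5, and 1 fall without any one liver other than WT 10 mg/kg livers 2, 3, and 4. Of 12 hepatocyte markers 3 fell and 0 rose, with a median of −0.20 (1 fall without WT 10 mg/kg liver 1 or 5 or WT 3 mg/kg liver 2). The 5 measured neutrophil markers averaged 6.53 to 6.66 in WT 10 mg/kg livers and 5.42 to 6.44 in WT 3 mg/kg livers, a difference that includes S100a8 itself. The part of these cell types in the results above was not tested.

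The dose step was then set against that of Null mice, by testing the difference of the steps in 20 arrays. Of 11591 genes tested 35 (0.302%) were called, with 31 steps more positive in WT and 4 more negative. Of these, 33 were among the 1509 genes called between the WT doses, which share the WT arrays. The Null step by itself gave 0 calls in limma, with 1015 genes at an unadjusted p under 0.05. The 5 largest positive differences were those of Csf2rb, Mogat1, Ube2c, Ccnb2, and Cdc20. Csf2rb lay between 6.87 and 7.92 (median 7.75) in Null 10 mg/kg livers and between 7.40 and 8.08 (median 7.63) in Null 3 mg/kg livers. Its step was 2.07 in WT livers and −0.081 in Null livers, and the difference was 2.15 ± 0.314 (SE, adjusted p = 0.00243). Mogat1 lay between 4.74 and 5.36 in Null 10 mg/kg livers and between 4.81 and 5.21 in Null 3 mg/kg livers, below all WT arrays, and the difference was 2.13 ± 0.362 (SE, adjusted p = 0.00867). All of its Null values were below 5.65, the signal limit for the mean over these 20 arrays. Its Null step of 0.014 is therefore between levels near background. Ube2c gave a difference of 2.11 ± 0.302 (SE, adjusted p = 0.00238), Cdc20 one of 1.86 ± 0.255 (SE, adjusted p = 0.00152), and Ccnb2 one of 1.87 ± 0.386 (SE, adjusted p = 0.0494), which lost its call on leaving out any one of 16 of the 20 arrays (differences of 1.65 to 2.16). In the Null livers Ube2c, Cdc20, and Ccnb2 stepped by −0.31, −0.16, and −0.18 in that order. Their means were 6.34, 5.99, and 5.78 in Null 3 mg/kg livers and 6.04, 5.82, and 5.60 in Null 10 mg/kg livers. The WT 3 mg/kg means were lower, at 5.39, 5.43, and 4.96, and below the limit of 5.65. The part of these unlike starting levels in the differences was not tested. Acot2, a PPARα target, differed by 1.54 (adjusted p = 0.000864). Cd36 differed by 1.52 (adjusted p = 0.00618) in another of its probe sets, which rose by 1.57 in WT. Pltp differed by 1.60 (adjusted p = 0.000634). Of the 64 measured PPARα targets 5 were called for the difference, and the median step of the list was 0.30 in WT and 0.09 in Null.

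The 4 negative differences were those of Myom2 at −2.05 (adjusted p = 0.00618), N4bp2l1 at −0.92 (adjusted p = 0.0388), Abca8a at −0.69 (adjusted p = 0.0497), a lipid transporter relative, and Hal at −0.53 (adjusted p = 0.0382). Myom2 kept the call without any one array, and the others lost it without any one of 14, 16, and 12 of the 20 arrays in that order. The whole count was 17 without WT 3 mg/kg liver 1, 19 without Null 3 mg/kg liver 2, 20 without WT 10 mg/kg liver 1, 21 without any one of WT 10 mg/kg liver 2, WT 3 mg/kg liver 5, and Null 3 mg/kg liver 1, and 23 without any one of WT 3 mg/kg liver 2, Null 10 mg/kg liver 3, and Null 3 mg/kg liver 5. Several of the largest rises were not called for the difference. Cyp2c65 stepped by 1.93 in WT livers and 1.92 in Null livers, with a difference of 0.013 ± 0.876 (SE, adjusted p = 0.998). For S100a8 the steps were 3.40 in WT and 1.57 in Null livers, with a difference of 1.83 ± 1.08 (SE, adjusted p = 0.748). For Cbr3 they were 2.83 in WT and 1.16 in Null livers, with a difference of 1.67 ± 0.545 (SE, adjusted p = 0.368). Gstm4 stepped by 0.88 in WT and 0.91 in Null livers, with a difference of −0.036 ± 0.407 (SE, adjusted p = 0.994). These errors are wide, and a difference that was not called does not show equal steps.

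**Figure D5:**
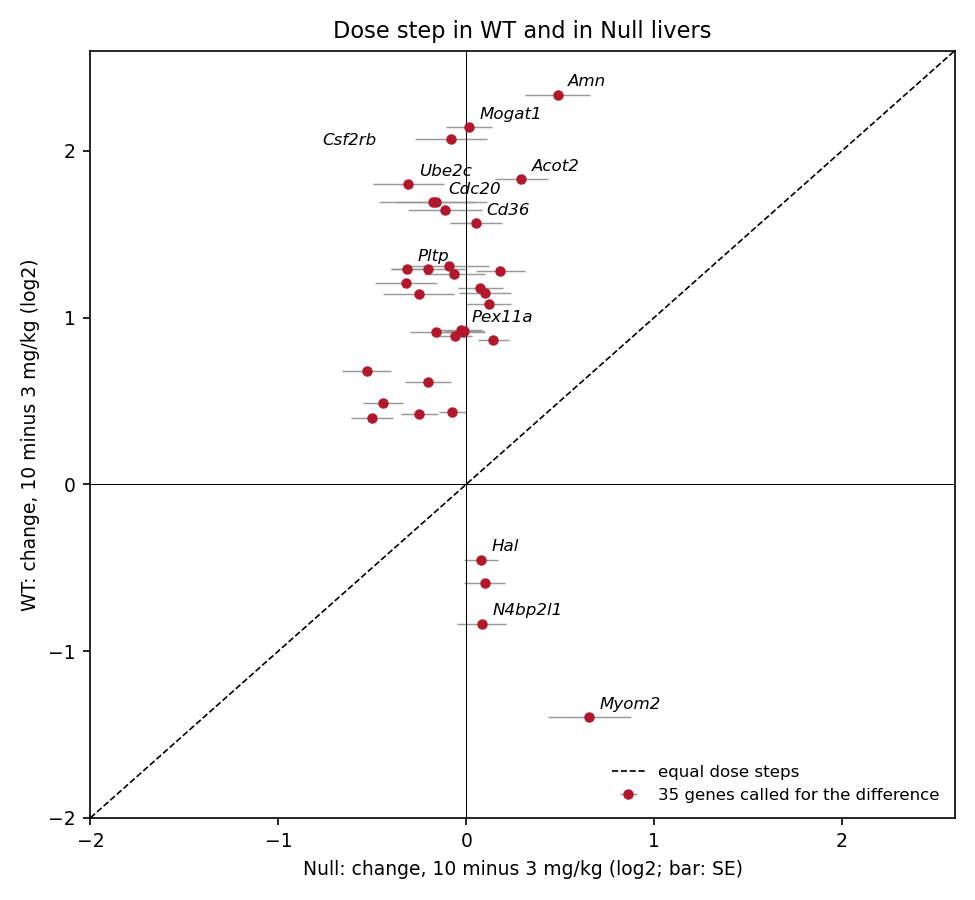
Dose step, 10 minus 3 mg/kg, of the 35 genes called for the difference, in WT livers (log2, y axis) and in Null livers (log2, x axis; horizontal bars are the SE of the Null step). All 31 genes above the diagonal have a Null step under 0.5, and Myom2 had steps of −1.40 in WT and 0.66 in Null livers.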

How the data were processed

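The authors prepared labelled RNA from 30 livers, 1 mouse per Affymetrix mouse expression array, and deposited log2 expression values after RMA, which corrects background, makes the arrays' distributions equal by quantile normalization, and summarizes the probes of each probe set. Quantile normalization hides a shift shared by most genes, and bright probe sets are compressed. Of 45101 probe sets 64 controls were left out. GEO's platform annotation gave 1 gene for 34945 probe sets, several for 932, and none for 9160. Symbols of 34741 probe sets were updated through their Entrez number, and columns of other samples numbered 0.

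The 5 WT 10 mg/kg and 5 WT 3 mg/kg arrays were compared with limma 3.58.1 (R 4.3.3) on the 22521 probe sets whose mean over these 10 arrays exceeded 5.66, the median of all their values, with Benjamini-Hochberg adjustment over all of them. A gene took its probe set with the smallest p, and the other probe sets are described where they disagreed. All adjusted p values are from limma unless named otherwise. The SE is that of the moderated fit. The difference of dose steps used 20 arrays, on probe sets chosen in the same way over those arrays. P-values measure the spread between mice, and 5 arrays per group limit the precision. Figures were drawn with matplotlib 3.10.9.

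Genes named are the 15 largest rises and the 15 largest falls among called genes without overlap, the 4 members with the smallest p of each list (some are not described), the 5 largest genotype differences in each direction, and Ppara. Further genotype differences are given for genes already named. S100a9, the partner of S100a8, falls under the rule as a list member. The comparison, the members, and the gene lists were chosen with earlier results of these data known. The alternatives were other filters, other normalizations, other choices of probe set, other arrays in the fit, other tests, and each array left out. The methods' t-test is the study's own kind of test, without limma's moderation of the spread. The fit between the WT doses was tested on simulated data, drawn for each gene by itself. It called 24 of 50 genes changed 1.25-fold, 44 of 50 changed 1.5-fold, and 5 of 11419 unchanged genes. These data held no liver effect shared between genes, so they do not speak to the dependence on single livers. Promoters are from RefSeq, GRCm38.p6.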

Additional observations from a re-analysis of the deposited data

Results flagged for a closer look

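In 18 of 208 tested groups of 5 livers, 1 liver stood apart from the other 4 by Dixon's criterion, which chance alone would give in about 1 in 20 groups, or 10.4 here. Of the WT 10 mg/kg livers, liver 3 stood apart for Ces1g (9.97, others 10.53 to 10.68), Cyp4a31 (12.42, others 11.80 to 11.96), Gstm3 (13.72, others 14.02 to 14.08), and Krt8 (11.59, others 11.90 to 11.99). In the same group liver 4 did so for Cpt2 (11.78, others 11.95 to 11.99) and liver 5 for D17H6S56E-5 (6.47, others 7.27 to 7.38). Of the WT 3 mg/kg livers, liver 2 stood apart for Acot4 (9.50, others 8.87 to 9.00), Decr1 (12.10, others 12.21 to 12.23), Mgll (10.23, others 10.69 to 10.79), N4bp2l1 (9.93, others 9.45 to 9.56), Pcf11 (6.56, others 6.28 to 6.33), Pnisr (8.58, others 8.10 to 8.22), and Slc22a5 (9.79, others 9.49 to 9.56). Liver 1 of that dose did so for Hspb1 (8.76, others 8.45 to 8.53), liver 3 for Nqo1 (7.56, others 7.24 to 7.31), and liver 4 for Hsd3b5 (11.28, others 8.45 to 9.04). The remaining cases were those of WT 3 mg/kg liver 5 for Gstm3 (12.62, others 12.94 to 13.04) and Sdr9c7 (8.51, others 8.83 to 8.84).

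The dose step of 18 named genes differed between the genotypes by the test of the difference itself, given here first for each gene in log2 units of WT minus Null. It was more positive in WT for Csf2rb (2.15, with WT at 2.07 and Null at −0.081), Mogat1 (2.13, with WT at 2.14 and Null at 0.014), Ube2c (2.11, with WT at 1.80 and Null at −0.31), Ccnb2 (1.87, with WT at 1.69 and Null at −0.18), Cdc20 (1.86, with WT at 1.69 and Null at −0.16), Amn (1.85, with WT at 2.34 and Null at 0.49), and Birc5 (1.76, with WT at 1.64 and Null at −0.11). The same held for Pltp (1.60, with WT at 1.29 and Null at −0.32), Acot2 (1.54, with WT at 1.83 and Null at 0.29), Cd36 (1.52, with WT at 1.57 and Null at 0.052), Pex11a (0.95, with WT at 0.92 and Null at −0.027), Tubb6 (0.93, with WT at 0.92 and Null at −0.019), Mgll (0.82, with WT at 0.61 and Null at −0.20), and Plin2 (0.51, with WT at 0.43 and Null at −0.074). It was more negative in WT for Hal (−0.53, with WT at −0.45 and Null at 0.078), Abca8a (−0.69, with WT at −0.59 and Null at 0.10), N4bp2l1 (−0.92, with WT at −0.84 and Null at 0.083), and Myom2 (−2.05, with WT at −1.40 and Null at 0.66). The calls of Plin2, Mgll, and Tubb6 were near the threshold. Plin2 (adjusted p = 0.0497) lost the call without any one of 17 of the 20 arrays and under 6 of the other alternatives, Mgll (adjusted p = 0.0497) without any one of 15 and under 7, and Tubb6 (adjusted p = 0.0425) without any one of 15 and under 2.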

How the results depend on the processing

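The count of 1509 called genes became 712 with a replicate block, 877 with the methods' t-test after Benjamini-Hochberg adjustment and 843 at the methods' unadjusted limit of 0.0025, 2736 with array weights, 908 with the 5 WT control arrays added to the fit, and 303 when at least 1.5-fold was required. Leaving out 1 array gave 698 (without WT 10 mg/kg liver 1) to 2150 (without WT 10 mg/kg liver 3). The causes of these shifts were not tested. The labels do not say whether same-numbered livers are paired. The deviations of such pairs from their group means correlated at −0.22, −0.10, 0.12, −0.17, and −0.084. Pairs with unlike numbers gave −0.42 to 0.34, a spread too wide for this check to decide on pairing. The block gave 27 genotype differences against 35. That count was 23 without probe sets of the _s_at and _x_at classes, 17 with a mean above 7, and 76 with array weights, and 17 (without WT 3 mg/kg liver 1) to 51 (without Null 10 mg/kg liver 1) with 1 array left out. With the WT control arrays in the fit, the rises numbered 4 for CAR and PXR targets, 5 for NRF2 targets, 4 for thioesterases, 2 for the carnitine route, 5 for lipid synthesis, 9 for cell cycle genes, and 5 for the cytoskeleton.

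Of 104 genes with values in the text 101 were called, 98 stayed called with each array left out, and 59 stayed called under every other alternative run. None of the called genes changed direction in these runs. Among the uncalled, Ppara changed to −0.047 with array weights and ranged from −0.068 to 0.12 with 1 array left out, and S100a9 ranged from −0.0088 to 0.53. Bright probe sets can understate a change, and weak ones that lie near background in WT 3 mg/kg livers measure the size of a rise poorly.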
